A study of Arabidopsis thaliana with 14 samples.

Results

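The embryo proper is the part of the Arabidopsis thaliana embryo that becomes the seedling, and here its transcripts were compared with those of the 5 other tissues captured from the same stage of seed. The comparison used the 2 embryo proper arrays and 2 arrays each of micropylar endosperm, peripheral endosperm, chalazal endosperm, chalazal seed coat and general seed coat, which makes 12 of the 14 arrays in the series. The pair of whole-seed arrays was left out. All 22746 probe sets that are not array controls were compared, 13513 of them carrying a single gene, 503 several genes and 8730 none.

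All seeds were of the Ws-0 genotype at the bending-cotyledon stage, with bent cotyledons 100 to 140 µm long, and came from untreated plants 38 to 46 days old kept in continuous light at 20 °C. Tissue was cut by laser from sections fixed in ethanol and acetic acid, and 5 to 6 ng of RNA, or 2 to 5 ng for micropylar endosperm, was amplified for ATH1 arrays. The labels call the 2 arrays of a compartment biological replicates and do not say how many seeds or plants went into each. The micropylar arrays were grouped by title, source and description, which all say micropylar endosperm, although their cell type field says embryo proper.

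By the bending-cotyledon stage the embryo has set up its cotyledons, root and shoot poles and surface layer, its cells still divide, and its plastids are green while it begins to lay down oil and storage protein. The endosperm around it is a separate product of fertilization that feeds the embryo, with regions named by their place in the seed: micropylar near the root tip, peripheral along the wall and chalazal at the maternal supply end. The seed coat is maternal tissue, which produces flavonoid pigments and mucilage and passes sugars and amino acids inward.

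Each value is a signal intensity on a linear scale, and the authors had scaled every array to a trimmed mean of 500. Array medians ran from 99.1 to 169. Differences are given as log2 differences, embryo proper minus the other compartment, on values to which 32 was added, so those of dim probe sets are understated, and a probe set was called when limma's adjusted p was under 0.05 and the log2 difference was at least 1. With 2 arrays a group, the number of arrays limits the precision. The embryo proper arrays correlated at r = 0.9668 across probe sets, and the replicates of the other compartments between 0.8917 (peripheral endosperm) and 0.9450 (micropylar endosperm). The ratio of the 3′ to the 5′ actin control, which is higher where RNA is less complete, was 20.9 and 16.0 on the embryo proper arrays, against 13.8 and 19.8 on the micropylar arrays and 5.92 to 10.96 on the other 8. The same ratio for the GAPDH control was 3.26 and 3.65 on the embryo proper arrays, inside the range of 2.17 to 7.50 on the other 10. For the ubiquitin control it was 6.15 and 9.03 on the embryo proper arrays, against 8.43 and 8.42 on the micropylar arrays and 5.1 to 6.82 on the other 8. The part that RNA completeness plays in the differences below was not tested.

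The chosen embryo markers were high in the arrays labelled embryo proper. YAB3 encodes a YABBY protein that marks the outer side of young leaves and cotyledons, and read 2075 and 2128 in embryo proper, against 6.81 to 51.8 on the 10 other arrays. STOMAGEN, a secreted peptide that promotes stomata, read 856 and 1101 in embryo proper, against 1.79 to 68.0 elsewhere. AT5G44310, entered in the list of late embryogenesis abundant genes, read 13032 and 13308 in embryo proper, 300 and 1960 in micropylar endosperm replicates 1 and 3, and 14.4 to 187 on the remaining 8 arrays. For all 3 genes the embryo proper arrays stood above every other array. The 3 were chosen with earlier results of these data known, so their levels are no independent check of the tissue. They are also counted in the gene lists below. The 6 endosperm marker genes measured summed to 1448 and 2417 in embryo proper, against 18419 to 62739 on the 6 endosperm arrays and 3749 to 5337 on the 4 seed coat arrays. The flavonoid genes DFR and BAN together read 24.4 and 30.7 in embryo proper and 14.2 and 54.8 in chalazal endosperm. They read 435 to 1140 on the micropylar and peripheral arrays and 2759 to 9323 on the seed coat arrays. The 5 mucilage marker genes summed to 3135 and 2711 in embryo proper, 1059 and 1066 in chalazal endosperm, 2737 to 4189 on the micropylar and peripheral arrays and 24088 to 72226 on the seed coat arrays. Against the mean of the 5, limma called 2 of 2 flavonoid, 2 of 2 sugar and vascular, 4 of 5 mucilage (1 without embryo replicate 2) and 2 of 6 endosperm marker genes lower in embryo proper, beside 8.59% of all probe sets, and 0 of these higher (0 at an unadjusted p under 0.05), beside 10.3%. Against single compartments some were higher in embryo proper: 2 of 6 endosperm and 2 of 5 mucilage markers against chalazal endosperm, beside 12% of all probe sets, and 1 endosperm marker against chalazal seed coat, beside 11.8%. The 2 endosperm markers became 1 without embryo replicate 1, either peripheral or general seed coat array or chalazal endosperm replicate 2, and 0 without embryo replicate 2, and the 1 against chalazal seed coat was lost without either embryo array or chalazal seed coat replicate 1.

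The fewest probe sets were called against micropylar endosperm and the most against chalazal seed coat. The micropylar arrays were made from less RNA, 2 to 5 ng, and with the embryo proper arrays had the highest actin ratios; what this contributes to the comparison was not tested. Against micropylar endosperm, 877 probe sets were higher (3.86% of those tested) and 1104 lower (4.85%). Against peripheral endosperm, 1464 were higher (6.44%) and 1166 lower (5.13%). Against chalazal endosperm the counts were 2728 higher (12%) and 2367 lower (10.4%), against chalazal seed coat 2695 higher (11.8%) and 2895 lower (12.7%), and against general seed coat 2539 higher (11.2%) and 2607 lower (11.5%). The correlation of mean profiles across probe sets ran in a like order, from 0.8712 with micropylar and 0.8427 with peripheral endosperm to 0.7324 with general seed coat, 0.7292 with chalazal endosperm and 0.6942 with chalazal seed coat. These figures describe all probe sets together, and probe sets are not independent of each other. The shares called are the ones to set beside the counts of list genes by compartment below.

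**Figure D1:**
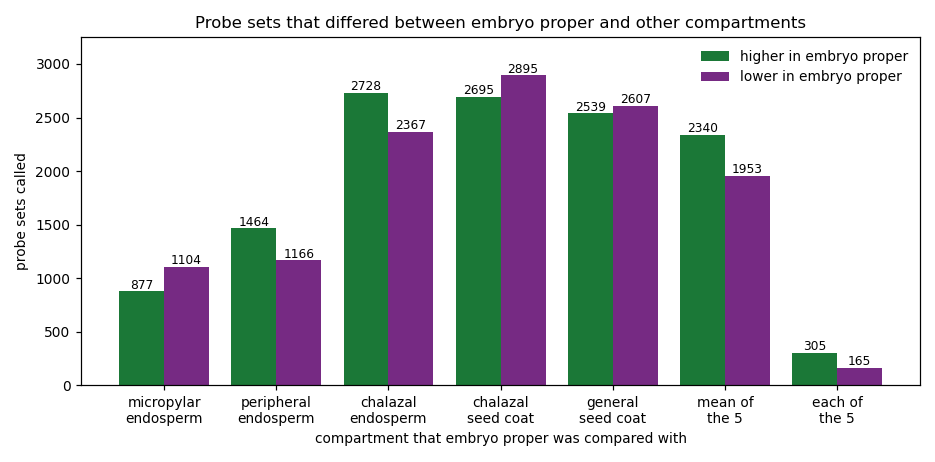
Number of probe sets called higher (green) or lower (purple) in embryo proper than in each named compartment, in the mean of the 5 and in every one of the 5 at once; the vertical axis counts probe sets out of 22746. The counts are smallest against micropylar endosperm (877 higher and 1104 lower) and lie between 2367 and 2895 against chalazal endosperm and both seed coats.

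Against the mean of the 5 compartments, 2340 probe sets were higher in embryo proper (10.3%) and 1953 lower (8.59%). The stricter requirement, a call against every one of the 5, was met by 305 probe sets on the higher side (1.34%), of which 130 carry a single gene, and by 165 on the lower side (0.725%), of which 101 do. By the same requirement 531 probe sets were higher in chalazal endosperm, 353 in chalazal seed coat, 309 in general seed coat, 47 in peripheral endosperm and 34 in micropylar endosperm. Where a gene list below had 0 genes called in a direction against the mean of the 5, limma also gave 0 at an unadjusted p under 0.05, except for 2 plastid genes, 1 IQD gene and 1 fatty acid synthesis gene on the lower side and 1 transport gene on the higher side. The median log2 difference over all probe sets was -0.12 against the mean of the 5, and -0.07 after quantile normalization.

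All counts were smaller with 1 embryo proper array, where the lone array is assumed to vary like the others. Without embryo proper replicate 1 or 2, the 305 became 74 or 88 and the 165 became 84 or 99. Against the mean of the 5, 1015 or 1063 were then higher and 892 or 925 lower. Against micropylar endosperm, 199 or 239 were higher and 534 or 567 lower without an embryo array, 319 higher and 678 lower without micropylar replicate 1, and 468 higher and 693 lower without replicate 3. Against peripheral endosperm, 402 or 447 were higher and 578 or 595 lower without an embryo array, and 816 higher without peripheral replicate 1. Against chalazal endosperm, chalazal seed coat and general seed coat the counts without an embryo array lay between 1232 and 1770. Without micropylar replicate 1, 132 in place of 305 were higher than in each of the 5. Where a gene named below lost such a call without 1 array, the array and the gap without it are given.

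The 305 spanned a wide range of levels. Their mean intensity in embryo proper ran from 68.3 to 71109 with a median of 1393, and 88 of them lay below the array's own median on all 10 other arrays. The next-highest compartment was micropylar endosperm for 106, peripheral endosperm for 75, general seed coat for 54, chalazal endosperm for 41 and chalazal seed coat for 29, and the median log2 gap to it was 2.26. When micropylar endosperm was not required, 478 probe sets were higher than in the other 4, and the median of their micropylar intensity was 18.1% (replicate 1) and 25.1% (replicate 3) of that in embryo proper. When chalazal seed coat was not required there were 343, with medians of 7.12% and 6.56% in chalazal seed coat.

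The gene with the widest gap was AT1G62500, which read 7783 and 6722 in embryo proper, against 1.68 and 291 in micropylar endosperm replicates 1 and 3 and 5.33 to 87.7 on the other 8 arrays. Its log2 difference to micropylar endosperm, the nearest compartment, was 6.12 ± 0.89 (SE, largest adjusted p = 0.000251). AT1G10640 came second, at 2749 and 2559 in embryo proper against 4.12 to 103 elsewhere, a log2 gap of 5.27 ± 0.74 (adjusted p = 0.000193). Neither overlapped between embryo proper and any other compartment, which their call against each of the 5 nearly requires. The reference table gives these loci no symbol, and no role is given to them here. YAB3 was among the 4 widest, with a log2 gap of 4.80 ± 0.54 to general seed coat (adjusted p = 7.99e-06).

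AT1G09750 (gap 4.83), AT1G65900 (4.35), AT4G19380 (4.23), AT1G68780 (3.96), AT3G54400 (3.95) and AT4G29030 (3.44) were also higher in embryo proper than in each of the 5, and kept that call without any single array. AT4G19380, for example, read 4064 and 4321 in embryo proper and at most 414 elsewhere. SBT1.3, a subtilisin-like protease, read 3048 and 3064 in embryo proper, against 111 and 390 in micropylar endosperm and 1.98 to 216 on the other 8 arrays. Its log2 gap of 3.65 ± 0.78 (adjusted p = 0.00623) did not pass without either embryo array (3.65 each) or without micropylar replicate 1 (2.87). AT2G10940 (gap 3.57) did not pass without embryo replicate 1 (3.46) or peripheral replicate 2 (2.40), and AT5G22810 (gap 3.49) without embryo replicate 1 (3.38) or micropylar replicate 1 (3.16).

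**Figure D2:**
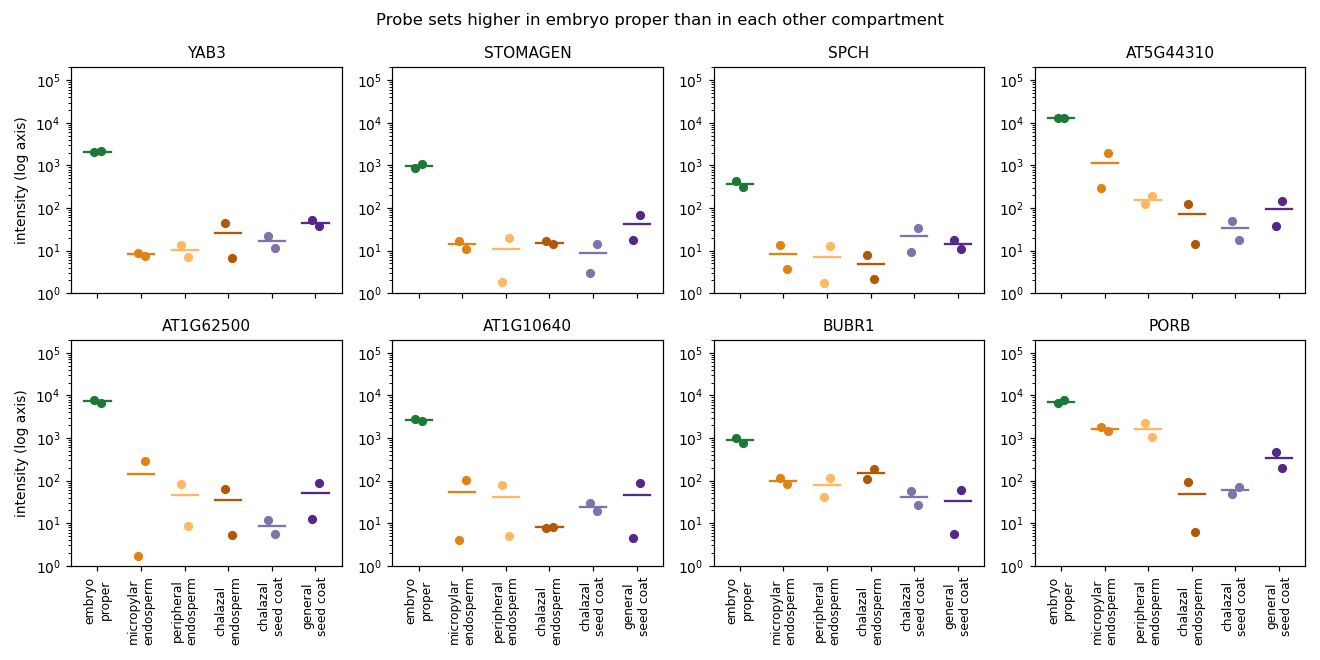
Intensity of 8 genes on each of the 12 arrays, on a log axis, with embryo proper at the left of each panel; points are arrays and bars are the means of 2. In every panel both embryo proper points lie above all 10 others, with STOMAGEN at 856 and 1101 and AT5G44310 at 13032 and 13308, while AT1G62500 and AT5G44310 also show a spread between the 2 micropylar arrays.

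STOMAGEN and SPCH, which promote stomata and start their lineage, were higher in embryo proper than in each of the 5. STOMAGEN had a log2 gap of 3.83 ± 0.54 to general seed coat, the nearest compartment (adjusted p = 6.21e-05). SPCH, the transcription factor that starts the stomatal lineage, read 424 and 305 in embryo proper, against 1.69 to 33.5 on the 10 other arrays, with a gap of 2.91 ± 0.47 (adjusted p = 0.000209). Both SPCH readings in embryo proper lay above all 10 others, which its call against each of the 5 nearly requires. MUTE and FMA, which act later in the lineage, were not called against the mean of the 5: MUTE read 7.24 and 2.68 and FMA 54.4 and 7.21 in embryo proper, against 1.82 to 66.3 and 2.098 to 75.9 elsewhere. MUTE was called lower than in general seed coat, where it read 66.3 and 37.5 (log2 difference -1.16 ± 0.38, adjusted p = 0.0351), which was lost without either embryo or micropylar array or general seed coat replicate 1. Of the 4 genes measured in this list of 16 entered, 2 were therefore higher than in each of the 5 (50%, beside 1.34% of all probe sets). Lower than in each were 0, beside 0.725%. Of the 2, STOMAGEN is a marker chosen with earlier results of these data known. STOMAGEN and SPCH kept their calls without any single array.

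The list of embryo pattern and meristem genes had 6 genes measured of 48 entered, of which 4 (66.7%, beside 10.3% of all probe sets) were higher than the mean of the 5 and 0 lower, with a median log2 difference of 1.53. YAB5, a second YABBY factor, read 282 and 209 in embryo proper, against 2.97 to 51.7 elsewhere (gap 2.31 ± 0.56, adjusted p = 0.00608). BBM, an AP2-type factor that promotes embryo identity, read 201 and 260 in embryo proper and 8.11 to 104 elsewhere, so the groups did not overlap, with a log2 difference of 1.65 to the mean of the 5. PHV, a homeodomain factor of the upper side of leaves, read 541 and 562 in embryo proper but 857 and 787 in peripheral endosperm, and its log2 difference to the mean of the 5 was 1.41. BBM and PHV were not called without embryo replicate 1 (1.82 and 1.44) or 2 (1.49 and 1.38), nor PHV without micropylar replicate 1 (1.32), which left 2 of the 6 without either embryo array. YAB3 and YAB5 were the 2 called against each of the 5 (33.3%, beside 1.34% of all probe sets). YAB5 was not called without embryo proper replicate 1 (2.12), chalazal endosperm replicate 2 (1.72), general seed coat replicate 2 (1.82) or micropylar replicate 3 (2.31).

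Of 11 genes measured in the list for the cell cycle and DNA replication, 6 (54.5%, beside 10.3% of all probe sets) were higher than the mean of the 5 and 0 lower, with a median log2 difference of 1.67, against -0.12 for all probe sets. By compartment, 9 were higher in embryo proper than in chalazal seed coat, 7 than in general seed coat, 4 than in chalazal endosperm, 3 than in peripheral and 3 than in micropylar endosperm. Without embryo replicate 1 these became 5 for chalazal seed coat, 2 for chalazal endosperm, 0 for peripheral and 1 for micropylar endosperm, and without replicate 2 they were 1 for each of the last pair. PRL, a subunit of the MCM complex that opens DNA for replication, read 1914 and 1882 in embryo proper, against 108 to 547 on the 10 other arrays (gap 2.0 ± 0.46, adjusted p = 0.0102). BUBR1, a spindle checkpoint protein, read 1017 and 758 in embryo proper, against 5.58 to 188 elsewhere (gap 2.37 ± 0.62, adjusted p = 0.0104). KINESIN-12B, a motor of the division plane, read 2615 and 2427 in embryo proper, with peripheral endosperm replicate 2 next at 1041 (gap 1.83 ± 0.51, adjusted p = 0.0274). These 3 were the genes of the list called against each of the 5 (27.3%, beside 1.34% of all probe sets). That call nearly requires that embryo proper lies above the 10 other arrays, as it did for all 3. Against the mean, 3 of the 11 passed without embryo proper replicate 1. Against each of the 5, none of the 3 passed without embryo replicate 1 (gaps of 1.98, 2.17 and 1.78 for PRL, BUBR1 and KINESIN-12B) or replicate 2 (2.01, 2.58 and 1.88), nor PRL without micropylar replicate 1 (1.74), BUBR1 without chalazal endosperm replicate 1 (2.05) or micropylar replicate 3 (2.37), or KINESIN-12B without peripheral replicate 1 (1.25).

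Some histone genes were higher in embryo proper too. HTB2, a histone H2B, read 6523 and 4558 in embryo proper, against 437 to 1748 elsewhere (gap 1.74 ± 0.33, adjusted p = 0.00206). It was the 1 of 7 histone genes called against each of the 5 (14.3%, beside 1.34% of all probe sets). HTR12, the centromeric histone H3, read 667 and 542 in embryo proper but 954 and 1002 in chalazal endosperm, above both embryo arrays. It had a log2 difference of 1.43 to the mean of the 5, and HTB4 one of 1.16. Against that mean 4 of the 7 (57.1%, beside 10.3% of all probe sets) were higher and 0 lower, or 2 of the 7 without either embryo proper array. Among those lost were HTR12 (1.28 without replicate 1 and 1.57 without replicate 2) and HTB1 (1.10 and 1.23). HTR12 also lost its call without either micropylar, chalazal endosperm or chalazal seed coat array or without general seed coat replicate 2 (1.32 to 1.46). HTB2 missed the call against each of the 5 without embryo replicate 1 (1.48).

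The nuclear photosynthesis genes measured, 12 of 53 entered, were higher in embryo proper than in chalazal endosperm and both seed coats. Of 12 nuclear photosynthesis genes measured, 12 were higher in embryo proper than in chalazal endosperm, 12 than in chalazal seed coat and 12 than in general seed coat. Of all probe sets, 12%, 11.8% and 11.2% were higher in these comparisons. The median log2 differences of the list were 3.40, 4.33 and 2.67, against -0.16, -0.14 and -0.17 for all probe sets. Against micropylar endosperm limma called 0 of the 12 (0 at an unadjusted p under 0.05), and against peripheral endosperm also 0 (3 higher and 1 lower at an unadjusted p under 0.05). PSAN, a photosystem I subunit, read 11455 and 12680 in embryo proper, 5840 and 6976 in micropylar and 4240 and 5691 in peripheral endosperm, and 10.4 to 1349 on the remaining 6 arrays. RCA, the activase of Rubisco, read 3428 and 4012 in embryo proper, 1123 to 2097 in the micropylar and peripheral endosperm arrays, and 14.8 to 643 on the other 6. LHCB4.3, an antenna protein, was lowest of the 12 by its difference to the mean of the 5, at 0.87, and read 2955 and 3070 in embryo proper against 6771 and 6463 in peripheral endosperm.

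The chlorophyll synthesis genes measured, 8 of 27 entered, were also higher in embryo proper. All 8 genes measured were higher in embryo proper than the mean of the 5, beside 10.3% of all probe sets, with a median log2 difference of 2.38. Higher than in micropylar endosperm were 4 (50%, beside 3.86%), and higher than in peripheral endosperm 3 (37.5%, beside 6.44%). PORB, which reduces protochlorophyllide in the light, read 6669 and 7683 in embryo proper, 1813 and 1435 in micropylar endosperm, 2281 and 1048 in peripheral endosperm, and 6.24 to 481 on the other 6 arrays (gap 2.13 ± 0.56, adjusted p = 0.0223). HEME1, a uroporphyrinogen decarboxylase, read 1736 and 1655 in embryo proper, against 192 to 631 elsewhere (gap 1.39 ± 0.41, adjusted p = 0.0429). PORB and HEME1 were the 2 called against each of the 5 (25%, beside 1.34% of all probe sets). In neither did the groups overlap, which that call nearly requires. Neither passed without embryo proper replicate 1 (2.23 and 1.36 for PORB and HEME1) or 2 (2.03 and 1.42), or without micropylar replicate 1 (2.19 and 1.40) or 3 (1.96 and 1.38), nor PORB without peripheral replicate 2 (1.64). CHLM, the methyltransferase of magnesium protoporphyrin, read 5643 and 5382 in embryo proper, with a log2 difference of 0.84 to micropylar endosperm that was not called and of 4.30 to chalazal endosperm that was.

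Transcripts of the plastid genome itself were measured as well. Of 69 plastid genes measured, 26 (37.7%, beside 10.3% of all probe sets) were higher than the mean of the 5 and 0 lower, and 9 were higher than in each of the 5, which is 13% of the list beside 1.34% of all probe sets. The 9 were rpoB and rpoC1 for the plastid RNA polymerase, rps3, rps15, rps16, rpl14, rpl16 and rpl22 for the plastid ribosome, and ndhH for the NADH dehydrogenase-like complex. rpoC1 read 11278 and 8772 in embryo proper, against 1344 to 3327 elsewhere (gap 1.59 ± 0.28, adjusted p = 0.00139). rpoB read 9252 and 7728 in embryo proper, against 1168 to 2993 elsewhere (gap 1.58 ± 0.29, adjusted p = 0.000601).

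Among the ribosomal genes, rps3 read 10112 and 10342 in embryo proper, 3520 and 4067 in micropylar endosperm and 3890 and 3525 in peripheral endosperm. On the 6 remaining arrays rps3 read 903 to 2093, and its gap to micropylar endosperm was 1.43 ± 0.27 (adjusted p = 0.00244). The gaps of the 9 ran from 1.07 (ndhH) to 1.59. Both embryo arrays lay above the 10 others in all 9, which a call against each of the 5 nearly requires. rpl14, rpl16, rps3 and rpl22 lie next to one another in the plastid gene order by their locus numbers, as do rpoC1 and rpoB, and plastid genes in such clusters are transcribed together, so the 9 are not independent. By compartment, 51 of the 69 were higher in embryo proper than in chalazal seed coat, 36 than in chalazal endosperm, 25 than in general seed coat, 16 than in micropylar and 14 than in peripheral endosperm, with 1 gene lower against each of the last 2. Without embryo proper replicate 1 or 2, 2 or 3 of the 9 passed against each of the 5, and the gap of rpoC1 was 1.41 without replicate 1, where it did not pass. The gaps that did not pass without replicate 1 or 2 were 0.97 and 1.16 for ndhH, 1.35 and 1.32 for rps15, 1.07 and 1.2 for rpl14, 1.38 and 1.41 for rpl16, 1.1 each for rpl22, and 1.18 and 1.54 for rps16. Calls were also lost without general seed coat replicate 1 (0.97) or 2 (1.16) for ndhH, without peripheral replicate 2 (0.86) or micropylar replicate 1 (1.09) or 3 (1.14) for rpl14, without peripheral replicate 2 (0.99) or micropylar replicate 1 (0.89) for rpl22, and without micropylar replicate 1 (1.04) for rps16. Of the 9, rps3 and rpoB passed without any single array.

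**Figure D3:**
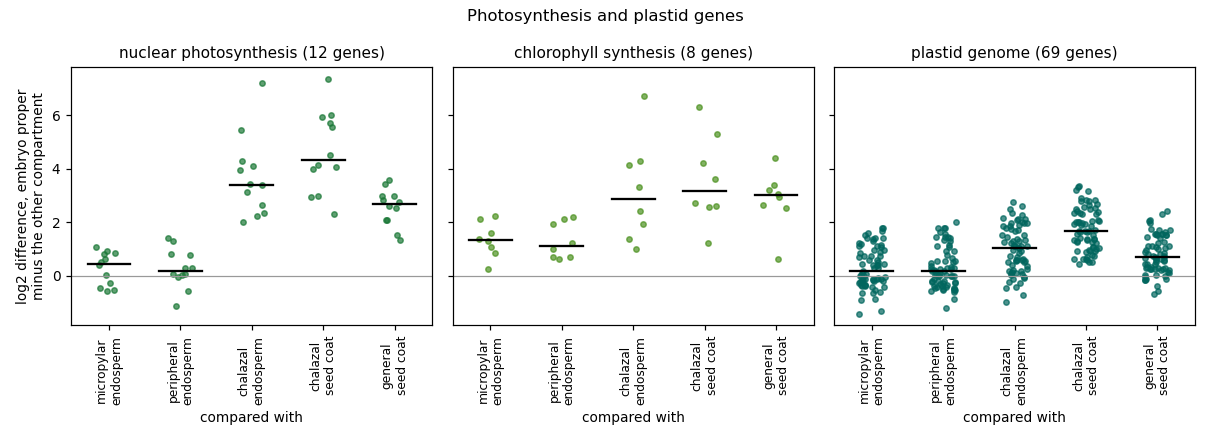
Log2 difference of each gene, embryo proper minus the compartment named below the axis, for 12 nuclear photosynthesis genes, 8 chlorophyll synthesis genes and 69 plastid-genome genes; points are genes and black bars medians. The photosynthesis genes sit around 0 against micropylar and peripheral endosperm and between 1 and 8 against the other 3 compartments, whereas chlorophyll synthesis genes lie above 0 in all 5 comparisons.

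Most of the oil synthesis genes measured, 7 of 36 entered, were higher in embryo proper than in chalazal endosperm and both seed coats. Of 7 genes measured for fatty acid and triacylglycerol synthesis, 6 were higher in embryo proper than in chalazal endosperm, 6 than in chalazal seed coat and 6 than in general seed coat, and 1 was lower in each. Of all probe sets, 12%, 11.8% and 11.2% were higher and 10.4%, 12.7% and 11.5% lower in these comparisons. Against micropylar endosperm limma called 0 (3 higher at an unadjusted p under 0.05), and against peripheral endosperm 0 (1 lower at an unadjusted p under 0.05). FATB, a thioesterase that releases saturated fatty acids, was the gene on the lower side, at 969 and 710 in embryo proper, against 1903 and 2234 in chalazal seed coat. FaTA, its counterpart for unsaturated fatty acids, read 5781 and 5326 in embryo proper, 732 and 571 in chalazal seed coat, and 7397 and 5132 in peripheral endosperm. Of 5 oil body genes measured of 14 entered, 3 (60%, beside 10.3% of all probe sets) were higher than the mean of the 5 compartments. Of these 3, AT2G25890 was not called without embryo replicate 1 (1.63) or 2 (1.94). OLEO3, an oleosin of the oil body surface, read 36004 and 34656 in embryo proper, 29559 to 38073 on the micropylar and peripheral arrays, and 143 to 14012 on the other 6.

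Among the 7 storage protein genes measured of 15 entered, 4 were higher (57.1%, beside 10.3% of all probe sets) and 1 lower (14.3%, beside 8.59%) than the mean of the 5. PAP85, a vicilin-like protein, read 1924 and 1892 in embryo proper, 262 and 728 in micropylar endosperm, 33.7 and 536 in peripheral endosperm, and 6.32 to 265 on the other 6 arrays. It was called against each compartment but micropylar endosperm, where its log2 difference was 2.04. AT2G18540 read 17204 and 18918 in embryo proper and 6624 and 25268 in micropylar replicates 1 and 3, so those groups overlapped. AT1G07750 was the gene on the lower side and was lower than in each of the 5, at 1575 and 1851 in embryo proper, against 3418 to 8974 elsewhere (gap -1.09 ± 0.27, adjusted p = 0.00635). That call was lost without embryo proper replicate 1 (-0.97) or chalazal endosperm replicate 2 (-0.99), and without peripheral replicate 2 a storage protein gene was higher than in each of the 5, which 0 of 7 were otherwise (1 at unadjusted p under 0.05 against all 5).

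Of 25 late embryogenesis abundant genes measured, 4 were higher than the mean of the 5 (16%, beside 10.3% of all probe sets) and 1 lower (4%, beside 8.59%), with a median log2 difference of -0.1, and 20 were not called. The 2 called against each of the 5 (8%, beside 1.34% of all probe sets) were AT5G44310 (gap 4.02 ± 0.75, adjusted p = 0.00231) and AtLEA4-1. AtLEA4-1 read 2636 and 2343 in embryo proper, 139 and 459 in micropylar endosperm and 6.82 to 169 on the other 8 arrays, with a gap of 3.12 ± 0.64 (adjusted p = 0.00482). AT2G18340 read 861 and 1233 in embryo proper and 470 and 808 in micropylar endosperm, and had log2 differences of 3.52 to peripheral endosperm and 0.71 to micropylar endosperm, and this last one was not called. Without micropylar replicate 1, neither AT5G44310 (2.73) nor AtLEA4-1 (2.36) was called against each, nor was AtLEA4-1 without embryo replicate 1 (3.04) or 2 (3.21). Of the maturation regulators, EEL, a bZIP factor of seed maturation, had 12501 and 12914 in embryo proper and 1269 to 2181 in the seed coat arrays, and BZIP53, a second such factor, had 1073 and 1445 in embryo proper against 2691 to 5549 there. Their log2 differences to the mean of the 5, 1.12 and -1.03, were not called without embryo proper replicate 1 (1.15 and -0.82), nor that of EEL without replicate 2 (1.10), nor that of BZIP53 without general seed coat replicate 1 (-1.0) or micropylar replicate 1 (-0.98).

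Of 5 cuticle and surface lipid genes measured, 2 were higher than the mean of the 5 (40%, beside 10.3% of all probe sets) and 0 lower. By compartment, 4 were higher in embryo proper than in chalazal endosperm, 4 than in chalazal seed coat, 3 than in general seed coat, 2 than in peripheral and 1 than in micropylar endosperm, with 1 gene lower against each of the last 2. Without embryo replicate 1 the count was 2 for chalazal seed coat, 1 for peripheral and 0 for micropylar endosperm; the peripheral count was also 1 without embryo replicate 2, peripheral replicate 1 or any 1 chalazal seed coat or micropylar array, and the micropylar one 0 without micropylar replicate 1. The gene lower than in micropylar endosperm was not called without either embryo array or micropylar replicate 1. AT5G01075, in this list, read 4125 and 3551 in embryo proper, 24.9 and 615 in micropylar replicates 1 and 3, and 2.54 to 154 on the other 8 arrays (gap 4.33 ± 0.88, adjusted p = 0.00433); it was not called without embryo replicate 1 (4.22) or micropylar replicate 1 (2.58). GSO1, a receptor kinase needed for a continuous embryonic cuticle, read 920 and 821 in embryo proper, 549 and 443 in micropylar endosperm and 5.88 to 296 on the other 8 arrays. GSO1 was called against each compartment but micropylar endosperm, where its log2 difference was 0.78. EXPA15, an expansin that loosens walls, read 2179 and 2594 in embryo proper, 231 and 331 in micropylar endosperm and 18.2 to 157 on the other 8 arrays (gap 2.96 ± 0.61, adjusted p = 0.00458), and was not called without embryo replicate 1 (3.09) or 2 (2.84) or micropylar replicate 1 (2.73). Of 37 cell wall genes, 5 were higher and 4 lower than the mean of the 5, a split of 13.5% and 10.8% beside 10.3% and 8.59% of all probe sets. Without embryo proper replicate 1 or 2 the higher count was 2 in both cases and the lower 2 or 1, and without chalazal seed coat replicate 2 or micropylar replicate 1 the higher count was 3.

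The IQD family of calmodulin-binding proteins was looked at after its values had been seen, and 3 of 11 genes measured (27.3%, beside 10.3% of all probe sets) were higher than the mean of the 5 and 0 lower (7 higher and 1 lower at an unadjusted p under 0.05). IQD26 read 1280 and 970 in embryo proper, against 5.48 to 126 on the 10 other arrays (gap 3.22 ± 0.60, adjusted p = 0.00112), and kept its call without any single array. IQD18 read 132 and 68.1 in embryo proper, against 4.12 to 19.3 elsewhere (gap 1.55 ± 0.41, adjusted p = 0.0137). Its call was lost without embryo replicate 1 (1.20), peripheral replicate 2 (1.5), chalazal endosperm replicate 1 (1.32) or either micropylar array (1.55 each).

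Auxin genes were mixed, with 5 of 16 higher (31.2%, beside 10.3% of all probe sets) and 1 lower (6.25%, beside 8.59%) than the mean of the 5. IAA30, an Aux/IAA repressor, read 379 and 504 in embryo proper, against 6.15 to 176 elsewhere, a log2 difference of 2.27 to the mean of the 5. GH3.3, an enzyme that conjugates auxin, read 272 and 328 in embryo proper, overlapping with 126 and 296 in chalazal seed coat. GH3.9, of the same enzyme family, was lower, at 50.0 and 12.3 in embryo proper, against 1678 to 5428 on the 4 seed coat arrays. With either embryo array left out 1 of the 16 was higher, and without replicate 2 neither GH3.3 (2.11) nor GH3.9 (-2.46) was called, and IAA30 was not called without replicate 1 (2.46) or 2 (2.08).

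**Figure D4:**
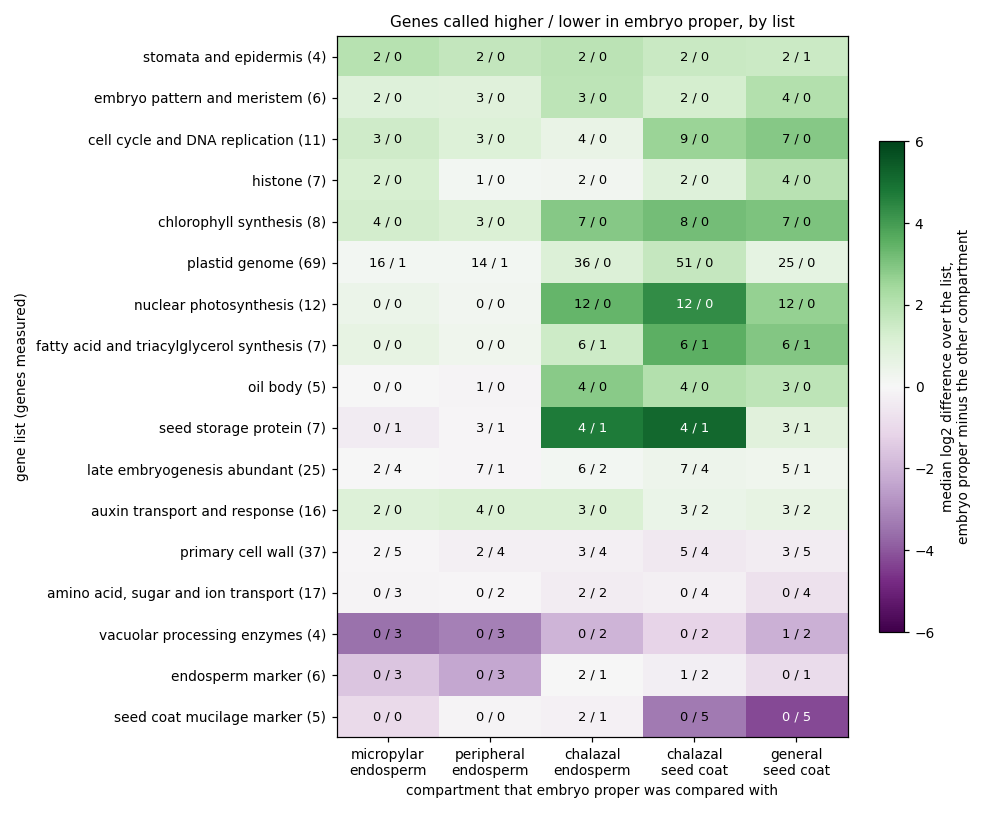
Gene lists down the page with the number of genes measured, compartments across; each cell gives the genes called higher / lower in embryo proper and its colour the median log2 difference, embryo proper minus the compartment, over the list. Nuclear photosynthesis shows 0 / 0 against micropylar and peripheral endosperm and 12 / 0 against the other 3, and vacuolar processing enzymes have negative medians in all 5 columns.

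The 165 probe sets lower in embryo proper than in each compartment had a median embryo intensity of 110, and 87 of them lay below the array's own median on both embryo arrays. The nearest compartment was chalazal endosperm for 54, general seed coat for 32, chalazal seed coat for 29, peripheral endosperm for 28 and micropylar endosperm for 22, and the median log2 gap was -1.77. On bulk tissue such as this, fewer cells that hold a transcript and less of it per cell cannot be told apart, which holds for the higher genes too.

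AT3G28500 had the widest gap on this side, at 21.0 and 82.8 in embryo proper, against 1864 to 7321 on the 10 other arrays (gap -4.76 ± 0.41, adjusted p = 9.35e-07). AT5G07260 read 5.91 and 1.81 in embryo proper, 10988 and 13576 in chalazal endosperm, and 517 to 6429 on the other 8 arrays (gap -4.05 ± 0.36, adjusted p = 7.21e-07). In both genes every other array lay above both embryo arrays, which their call against each of the 5 nearly requires. The calls held without any single array.

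AT5G05250 (gap -4.21), AT5G16230 (-3.81), AT5G59845 (-3.61), AT1G63540 (-3.55), AT4G20480 (-3.43), AT5G52330 (-3.23) and AT1G21680 (-3.22) were also among the 10 widest gaps on the lower side. AT5G59845 differed most between the other compartments, from 328 in peripheral endosperm replicate 1 to 27923 in general seed coat replicate 2, and read 7.52 and 39.4 in embryo proper. AT1G63540 and AT4G20480 varied least, within 481 to 2124 and 676 to 2204 on the 10 other arrays, while embryo proper read 57.6 and 3.14 for AT1G63540 and 8.66 and 83.6 for AT4G20480.

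**Figure D5:**
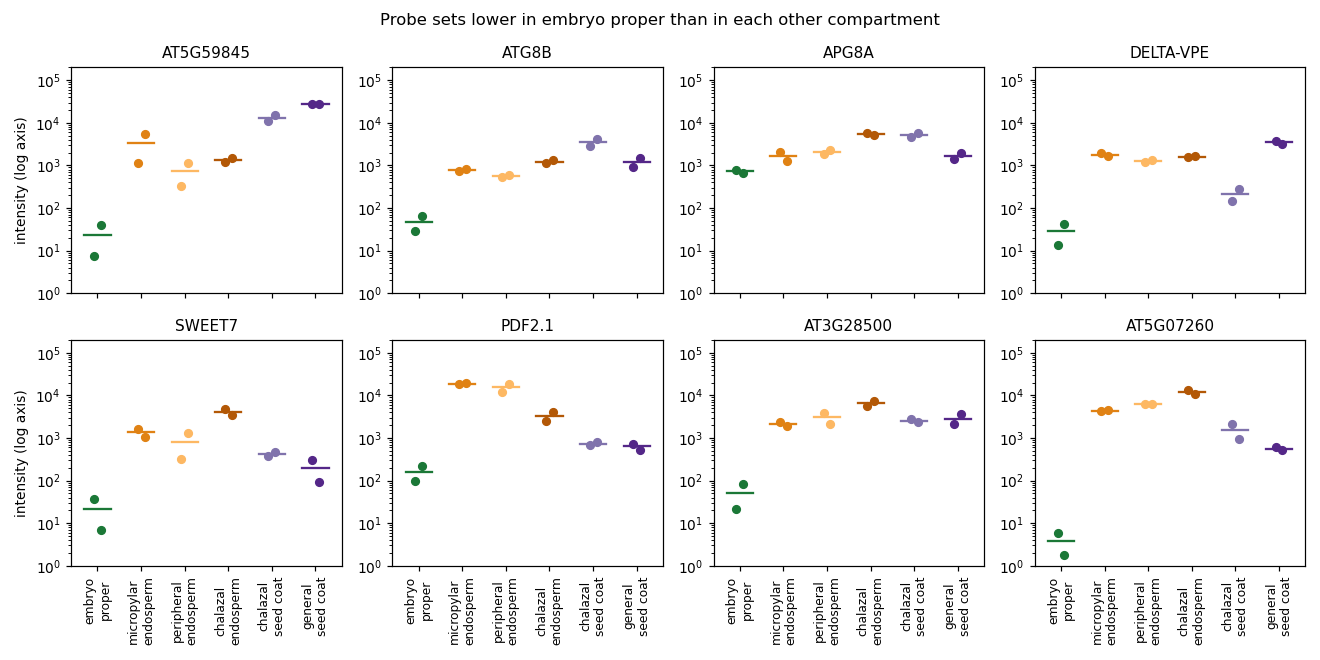
Intensity of 8 genes on each of the 12 arrays, on a log axis, with embryo proper at the left of each panel; points are arrays and bars are the means of 2. Both embryo proper points lie below all 10 others in every panel, by the widest margin for AT5G07260 and the narrowest for APG8A.

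Most of the vacuolar processing enzyme genes measured were lower in embryo proper. Of these 4 genes, for proteases that cut storage proteins and act in cell death, 3 (75%, beside 8.59% of all probe sets) were lower than the mean of the 5. None was higher than that mean, and the median log2 difference was -2.68. Against general seed coat, 1 of the 4 was higher (25%, beside 11.2%). DELTA-VPE read 13.5 and 42.7 in embryo proper, 142 and 278 in chalazal seed coat, and 1178 to 3782 on the other 8 arrays (gap -2.0 ± 0.40, adjusted p = 0.00113). ALPHA-VPE read 134 and 72.8 in embryo proper, overlapping with 109 and 159 in chalazal seed coat, against 935 to 8766 in the endosperm. GAMMA-VPE read 1075 and 1234 in embryo proper, against 1334 to 14650 elsewhere. BETA-VPE, the form that processes storage proteins in embryos, was not lower than the mean of the 5, at 3625 and 3007 in embryo proper and 926 to 5812 elsewhere (log2 difference -0.01). Without chalazal endosperm replicate 2, 2 genes of the list were lower than in each of the 5.

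The ATG8 family, small proteins that coat the autophagosome, was examined after its values had been seen. Of 9 genes measured, 5 (55.6%, beside 8.59% of all probe sets) were lower than the mean of the 5 and 0 higher, with a median log2 difference of -1.21. ATG8B read 29.6 and 63.8 in embryo proper, against 529 to 4232 on the 10 other arrays (gap -2.97 ± 0.40, adjusted p = 8.78e-05). APG8A read 802 and 653 in embryo proper, against 1298 to 5749 elsewhere (gap -1.14 ± 0.32, adjusted p = 0.0308). ATG8F, ATG8H and APG8H had log2 differences of -1.21, -2.58 and -1.57 to the mean, and ATG8C, ATG8D, ATG8E and ATG8G, at -0.96, -0.72, -0.36 and -0.74, were not called. ATG8E read 140 and 383 in embryo proper and 58.3 to 2367 elsewhere, so its groups overlapped. ATG8B kept its call against each of the 5 without any single array. APG8A did not without embryo replicate 1 (-1.28) or 2 (-1.0), general seed coat replicate 2 (-0.95) or micropylar replicate 1 (-0.82).

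Further genes on the lower side include transporters and small secreted proteins. Of 17 genes in the transport list, most of them SWEET sugar carriers, 4 (23.5%, beside 8.59% of all probe sets) were lower than the mean of the 5 and 0 higher. SWEET7 read 36.7 and 6.996 in embryo proper, 92.7 and 310 in general seed coat, and 329 to 4859 on the other 8 arrays (gap -2.0 ± 0.60, adjusted p = 0.0227). It was not called without embryo replicate 2 (-1.59) or general seed coat replicate 1 (-1.27). SWEET11, which exports sucrose to the embryo, read 158 and 281 in embryo proper, 10598 and 12520 in peripheral endosperm, 1003 and 1050 in chalazal seed coat, and 3.99 and 56.4 in chalazal endosperm, the 1 compartment below embryo proper. PDF2.1, a defensin-like protein picked after its values were seen, read 98.9 and 216 in embryo proper, 536 to 811 on the seed coat arrays and 2548 to 19396 in the endosperm (gap -1.87 ± 0.36, adjusted p = 0.00111). LCR69, of the same family, read 2978 and 3237 in embryo proper, against 7251 to 87973 elsewhere (gap -1.35 ± 0.23, adjusted p = 0.000267), and both kept their calls without any single array. They were the 2 of 15 defensin-like genes measured that were lower than in each of the 5 (13.3%, beside 0.725% of all probe sets).

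EXLA1, an expansin-like wall protein, read 92.5 and 77.7 in embryo proper, 132 and 572 in chalazal endosperm, and 1841 to 32831 on the other 8 arrays. Its gap of -1.43 ± 0.49 (adjusted p = 0.0436) was not called without embryo replicate 1 (-1.52) or 2 (-1.34), chalazal endosperm replicate 2 (-0.49), or any 1 seed coat array (-1.43 each). UGT84B1, a glucosyltransferase that acts on auxin, read 9.23 and 56.3 in embryo proper, 113 and 363 in general seed coat, 1362 to 2862 on the micropylar, peripheral and chalazal seed coat arrays, and 21856 and 25817 in chalazal endosperm. The UGT family was looked at after its values had been seen. UGT84B1 was the 1 of 47 UGT genes lower than in each of the 5 (2.13%, beside 0.725% of all probe sets). Its gap of -1.99 ± 0.49 (adjusted p = 0.00683) was not called without embryo replicate 1 (-1.44) or general seed coat replicate 2 (-1.26).

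The widest single differences were against the seed coat and chalazal tissues. GILT, a thiol reductase, read 17.6 and 4.77 in embryo proper, against 59675 and 59161 in general seed coat, a log2 difference of -10.44 that is the widest of the named genes. AT1G62070 read 49.8 and 10.2 in embryo proper, against 90745 and 62635 in general seed coat (log2 difference -10.33). In micropylar endosperm GILT read 525 and 3089 and AT1G62070 525 and 8066 on replicates 1 and 3, so replicate 3 was the higher for these seed coat genes as it was for AT1G62500 and AT5G44310. What that difference between the micropylar replicates contributes to the results was not tested.

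Against chalazal seed coat, AT3G10590 read 2.53 and 2.65 in embryo proper and 26365 and 37626 in chalazal seed coat (log2 difference -9.83). SWEET10, a sugar carrier, read 3.97 and 6.06 in embryo proper, against 15937 and 16368 in chalazal seed coat and 8.75 to 105 on the other 8 arrays, and RR22, a response regulator of cytokinin signalling, 27.9 and 41.7 in embryo proper against 18993 and 24542 in chalazal seed coat. Against chalazal endosperm, AT5G40155 had a log2 difference of -9.57 and SBT4.13, a subtilisin-like protease, one of -9.42, with SBT4.13 at 55.3 and 3.93 in embryo proper and 32129 and 45579 in chalazal endosperm. On the other side, AT3G63040 and AT1G47540 were higher than in chalazal endosperm by log2 differences of 7.65 and 7.59, yet AT3G63040 read 12675 and 9391 in embryo proper and 19338 and 27644 in micropylar endosperm.

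Other genes differed widely from micropylar and peripheral endosperm. AT1G04645 read 4.69 and 11.9 in embryo proper, against 5573 and 5900 in micropylar endosperm (log2 difference -7.17), but 9.23 and 11.6 in general seed coat. AT3G61930 read 26.6 and 10.4 in embryo proper, against 5312 and 4144 in peripheral endosperm (log2 difference -6.57). AT5G01870 separated the pair: it read 9613 and 9356 in embryo proper, overlapping with 5575 and 10959 in micropylar endosperm, against 173 and 41.7 in peripheral endosperm (log2 difference 6.27).

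Probe sets without a gene in the annotation gave values of the same size. Probe set 256825_at read 1799 and 1963 in embryo proper, against 2.85 to 35.7 on the 10 other arrays (gap 5.17 ± 0.52, adjusted p = 6.1e-06). Probe set 256290_at read 2491 and 2330 in embryo proper, against 3.32 to 74.2 elsewhere (gap 4.99 ± 0.61, adjusted p = 4.52e-05). On the lower side 266743_at read 22.3 and 35.4 in embryo proper, against 2852 to 50606 elsewhere (gap -5.75 ± 0.28, adjusted p = 3.46e-09), which is wider than the gap of any named gene on that side. 256780_at read 70.1 and 63.4 in embryo proper, against 1484 to 8406 elsewhere (gap -4.10 ± 0.32). Such unnamed probe sets made up 167 of the 305 on the higher side and 64 of the 165 on the lower side, and 8 of the 305 carry several genes.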

How the data were processed

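RNA from microdissected tissue was amplified, labelled with biotin and hybridised to 1-colour ATH1 arrays. Per the submitters' processing notes, the deposited intensities came from GCOS (version not given in the sources used here). They are linear values that the authors had scaled, since the 2% trimmed mean of each array is 500. No detection calls were used.

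After 64 control probe sets had been set aside, log2(value + 32) of the remaining 22746 was modelled across 12 arrays with limma 3.58.1 under R 4.3.3, using lmFit and an intensity-trended eBayes, 1 coefficient for every compartment and 6 residual degrees of freedom. Benjamini-Hochberg adjustment covered the 22746 p-values of a contrast. Calls required adjusted p below 0.05 together with an absolute log2 difference of 1 or more. For a call against each of the 5, the largest adjusted p and the smallest difference (the gap) are given. The fit was tested on simulated data in which only 50 brighter probe sets per size of change were raised, in embryo proper alone. Far more were called against each single compartment in the data, so the share recovered there can differ. A call against each of the 5 recovered 2% of log2 changes of 1, 32% of those of 2 and 90% of those of 3. A call against micropylar endosperm alone recovered 10%, 64% and 96%. A gene that was not called can therefore still differ.

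Symbols are those of GEO's platform annotation after an update through RefSeq TAIR10.1, which held 13436 of the 13513 single-gene probe sets. A list member was represented by its brightest probe set. Genes were named as the 15 higher and 10 lower with the widest gaps, as some of the 4 widest per direction in each contrast, as up to 4 called members per list and as the 3 markers. One of those lower genes is not reported here. Others are given as list members or as chosen after their values were seen. The comparison, the lists and these rules were chosen with earlier results of these data known. Replicate numbers did not pair arrays: in the 5 compartments numbered 1 and 2, deviations correlated between -0.026 and 0.013.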

Additional observations from a re-analysis of the deposited data

How the results depend on the processing

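Adding 1 before the log gave 127 probe sets higher in embryo proper than in each of the 5 (305 with 32) and 541 higher than in micropylar endosperm (877 with 32). A replicate block on the array numbers, which 0 of 10 compartment pairs supported (no correlation above 0.1), gave 432 higher and 623 lower than in micropylar endosperm, against 877 and 1104 without the block. Only micropylar replicate 3 carries the number 3, so the block gave this array a level of its own. The comparison with micropylar endosperm then rested on micropylar replicate 1, so the block was no separate check of pairing there. Why adding 1 changed the counts was not tested. Quantile normalization, adding 100, a filter on dim probe sets, all 14 arrays and no intensity trend kept every one of the 14 counts within 1.5 times. Leaving out both micropylar arrays did so for the 4 counts recomputed, those against each compartment at once and against the mean.

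Leaving out 1 array at a time, with the lone array assumed to vary like the others, gave 74 to 314 higher and 84 to 188 lower than each of the 5, and 1015 to 2607 higher and 892 to 2117 lower than their mean. It gave 199 to 1134 higher and 534 to 1287 lower than micropylar endosperm, 402 to 1896 higher and 578 to 1280 lower than peripheral endosperm, and 1721 to 2954 higher and 1232 to 2656 lower than chalazal endosperm. It gave 1738 to 2913 higher and 1752 to 3163 lower than chalazal seed coat, and 1481 to 2804 higher and 1498 to 2887 lower than general seed coat.

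Of 174 gene comparisons recomputed, 0 reversed, 124 kept their call in every setting and 50 lost it in at least 1, of which 49 did so without an embryo proper array. Another pseudocount, normalization or filter, the replicate block or no intensity trend lost the call in 28. Among these were SBT1.3 (3.87) and PORB (2.15) with 1 added, and IQD18 (0.82) with 100 added. Others were EXLA1 after quantile normalization (-1.35) and HEME1 with the replicate block (1.23). Without the intensity trend, rpl14 (1.13) and APG8A (-1.14) were not called. With 2 arrays a group and no detection calls, differences among dim probe sets are the least certain. Many loci of the lists had no single-gene probe set and were not analysed here.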
